A study of Mus musculus with 8 samples.

Results

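Proteasome subunit genes were taken as every gene symbol made of Psm, a letter from a to g and a number. This gave 50 genes, of 24535 symbols in the RNA-seq tables and 25033 in the Ribo-seq tables of mouse liver. They were divided by role into 14 genes of the 20S core, 17 of the 19S cap, 3 immunoproteasome subunits, 6 activator and inhibitor genes (5 activators and the inhibitor Psmf1), 7 assembly chaperones and 2 tissue-specific 20S subunits. Psmc3ip also matched the pattern, but it is named for binding a subunit and encodes a recombination factor, so it was kept out of every class.

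The mice were C57BL/6 and received a high-fat diet with 45% of energy from fat from 8 weeks of age. The HF group received the diet alone, and the HB group received the same diet with 2% (w/v) betaine, a methyl donor, in the drinking water. Both groups therefore share the diet, and a standard-diet group was not analysed here. The labels place collection at postnatal week 25, which is 17 weeks after the start, although they also write of 25 weeks of diet. Each group of 6 mice gave 2 RNA-seq and 2 Ribo-seq libraries, called HF1, HF2, HB1 and HB2, so 8 libraries were used. The labels describe pooled preparations while the methods describe single mice, so the p-values measure the spread between libraries, which may be technical.

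RNA-seq of polyadenylated RNA gives mRNA levels, and Ribo-seq gives the ribosome-protected fragments (RPF) that lie on translated mRNA. Both were deposited as RPKM, reads scaled to gene length and library size. The ratio of RPF to mRNA is translation efficiency (TE). Whole reads could be recovered from the RPKM, and they placed the mRNA libraries at 11661207 to 22543471 reads and the RPF libraries at only 141890 to 1056546 reads. HB was the deeper group in mRNA and the shallower group in RPF. The summed level of 6 hepatocyte markers was 45490, 47259, 50088 and 50157 RPKM in HF1, HF2, HB1 and HB2, so the libraries carried the markers of the labelled tissue. In bulk liver, fewer cells of a type and less RNA per cell cannot be told apart.

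The proteasome degrades proteins that carry ubiquitin chains. Its 20S core is a barrel of alpha rings, which gate entry, around beta rings, in which Psmb5, Psmb6 and Psmb7 carry the proteolytic sites. The 19S cap recognises ubiquitin, unfolds the substrate with the Psmc ATPases and feeds it into the core, and interferon induces Psmb8, Psmb9 and Psmb10, which replace the constitutive catalytic subunits in the immunoproteasome. Because subunits are built into one particle in fixed proportions, their genes are known to be regulated together.

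Of the 50 genes, 47 passed the filter of a mean of at least 1 RPKM and were tested in mRNA, RPF and TE. Psma8 and Psmc3ip stayed below 1 RPKM in every mRNA library and were listed at 0 in RPF. Psmb11, the thymus subunit, was listed at 0 in every mRNA library. Psme2b passed in RPF only through HB, where it had 1 and 2 reads, and Psmd10 only through HF, since it had 0 reads in both HB libraries.

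The first comparison asked whether betaine was accompanied by a difference in proteasome mRNA. Some proteasome mRNAs of the core and the cap rose in HB, and none fell. At the study's thresholds, a log2 difference above 1 and p under 0.001, 5 members rose and 0 fell, against 2.30% of all 10687 tested genes that rose and 6.56% that fell. Adjusted for all genes (limma, Benjamini-Hochberg adjusted p under 0.05), 14 members rose and 0 fell, against 7.92% of all genes that rose and 19.1% that fell. Both HB libraries lay above both HF libraries in 34 of the 47 members, as they did in 24.8% of all genes. Both lay below in 0 members and in 43.3% of all genes. The median log2 difference was 0.51 over the members and -0.19 over all genes.

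The number of members past the study's thresholds was 3 without HF1, 3 without HF2, 5 without HB1 and 10 without HB2, where 1.59%, 2.32%, 2.36% and 4.67% of all genes were called upward. After adjustment over all genes the number was 6, 8, 13 and 18 in the same order, beside 3.06%, 4.91%, 6.83% and 12.4% of all genes. The log2 difference stayed above 0 for each of the 14 members in every alternative in which it was tested. With no filter on low values, however, 0 of the 14 kept an adjusted p under 0.05, and 0 of all 16758 genes had one. The calls of Psma5, Psmb7 and Psmd13 held in 14 of 14 alternatives. Over 10631 genes tested in mRNA the log2 difference had a correlation of -0.22 with log2 gene length, and over the 47 members it was 0.05, both as descriptions. The members were shorter than most genes, with a median length of 1277 bases against 2615. The part of length in the mRNA differences was not tested.

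**Figure D1:**
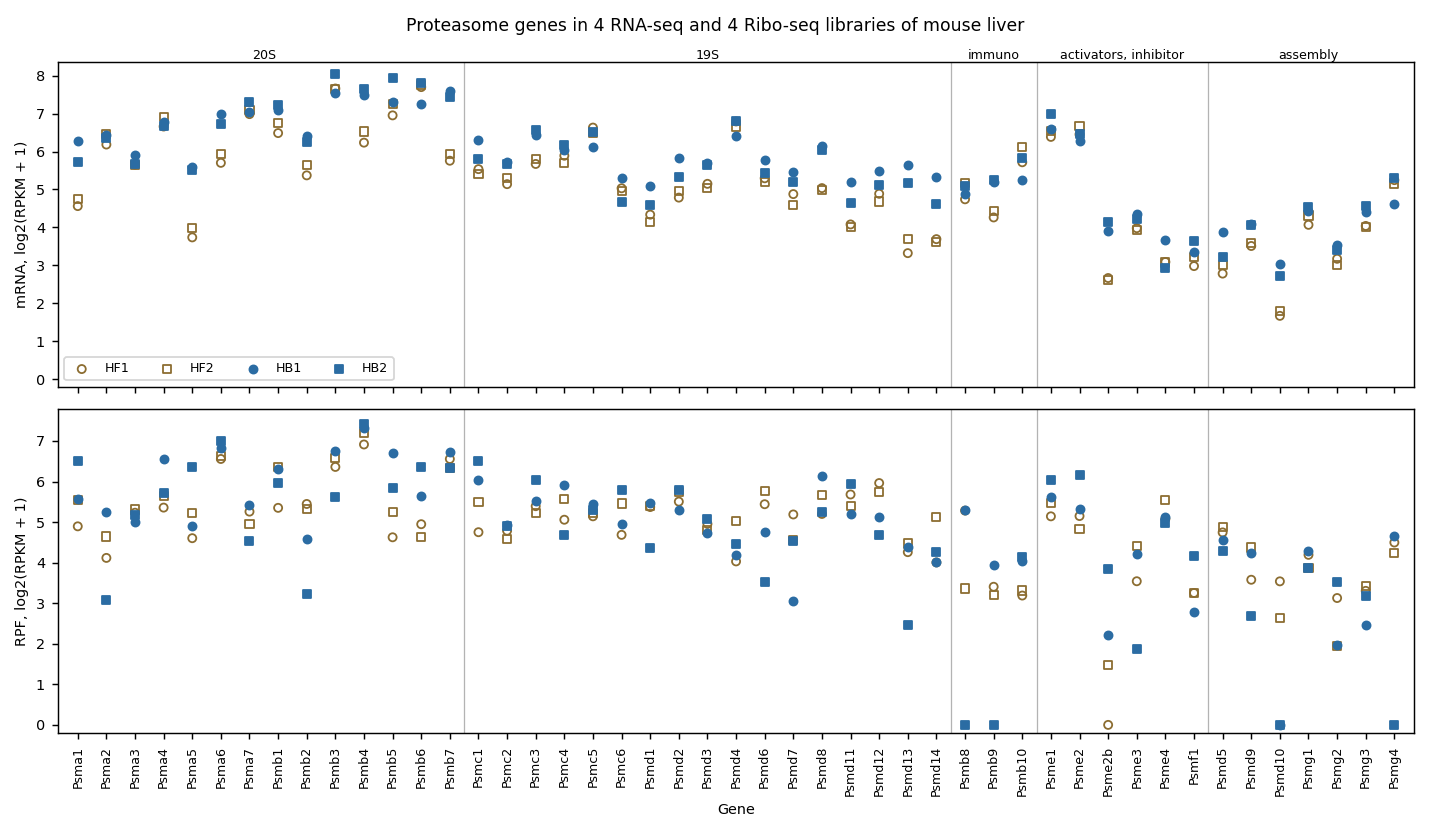
Level of 47 proteasome genes in each library as log2(RPKM + 1), mRNA above and RPF below, with HF1 and HF2 as open and HB1 and HB2 as filled symbols. In mRNA, both HB libraries lie above both HF libraries for 34 genes, with wide gaps for Psma1, Psma5, Psmb7 and Psmd13. In RPF the libraries overlap for most genes, and symbols at 0 are genes with 0 reads.

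Among the alpha-ring subunits, Psma5 (ENSMUSG00000068749.9, chr3:108256926-108279974, plus strand, GRCm38) had 12.3 and 14.7 RPKM of mRNA in HF1 and HF2 and 47.1 and 44.6 RPKM in HB1 and HB2. The groups were far apart compared with the gap within either, and the log2 difference was 1.69 ± 0.25 (SE, limma adjusted p = 0.00525). Psma5 was the 20S subunit with the lowest mRNA level in all 4 libraries. Psma1, another subunit of the alpha ring, had 22.6 and 25.7 RPKM in HF and 77.1 and 52.1 RPKM in HB, a log2 difference of 1.36 ± 0.28 (limma adjusted p = 0.00931), past the study's thresholds in 9 of 14 alternatives. The HB libraries of Psma1 differed more from each other than the HF libraries did, but without overlap. Psma6 rose by the adjusted test, by 1.03 ± 0.26 on the log2 scale (limma adjusted p = 0.0189), a call lost without HF1, without HF2 and with no filter. Psma2, Psma3, Psma4 and Psma7 had log2 differences of 0.06, 0.14, -0.06 and 0.14, none past a threshold, so the alpha ring was divided between large differences and differences near 0.

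The beta ring ranged from Psmb7 to Psmb6. Psmb7 (chr2:38588036-38644087, minus strand), the trypsin-like catalytic subunit, had 53.1 and 60.2 RPKM in HF and 191 and 174 RPKM in HB. Its groups were well separated, with a log2 difference of 1.67 ± 0.25 (limma adjusted p = 0.00526). The other catalytic subunits did not pass. Psmb5, the chymotrypsin-like subunit, had 123, 152, 157 and 243 RPKM in HF1, HF2, HB1 and HB2 (limma adjusted p = 0.218). Psmb6, the caspase-like subunit, had 207, 216, 152 and 224 RPKM, so that its groups overlapped (log2 difference -0.20 ± 0.28, limma adjusted p = 0.633). Of the structural beta subunits, Psmb4 rose by 1.18 ± 0.26 and Psmb2 by 0.82 ± 0.25 on the log2 scale (limma adjusted p = 0.0120 and 0.0397). These calls were lost in 2 and 5 of 14 alternatives. Psmb1 and Psmb3, at 0.54 and 0.13, did not pass. Psmb1 had 88.7 and 106 RPKM in HF and 137 and 148 RPKM in HB, without overlap.

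In the 19S cap, Psmd13 (chr7:140881968-140898643, plus strand), a subunit of the lid, had the highest mRNA difference of all members. Its values were 9.0 and 12 RPKM in HF and 49.3 and 34.8 RPKM in HB, with a log2 difference of 1.89 ± 0.28 (limma adjusted p = 0.00525). Psmd14, the lid deubiquitinase that cuts ubiquitin from the substrate, had 11.9 and 11.2 RPKM in HF and 39.2 and 23.6 RPKM in HB (log2 difference 1.33 ± 0.29, limma adjusted p = 0.0117). Neither gene overlapped between groups. Psmd8, Psmd11 and the ATPase Psmc3 rose by 1.09, 0.88 and 0.76 on the log2 scale by the adjusted test. The Psmd8, Psmd11 and Psmc3 calls were lost in 3, 6 and 8 of 14 alternatives. The remaining 12 cap genes did not pass, and the lowest was the ATPase Psmc5 at -0.24 ± 0.26. Psmd4, the ubiquitin receptor, had the highest cap level in HF at 110 and 99.8 RPKM and was at 83.5 and 110 RPKM in HB, with overlapping groups.

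By class, the median log2 mRNA difference was 0.53 in 20S and 0.59 in 19S. Over all genes 39.8% were above 0, with the shares called and adjusted given above. In 20S, 12 of 14 genes were above 0, 3 were called and 6 passed the adjusted test. In 19S, 14 of 17 were above 0, 1 was called and 5 passed the adjusted test. Both HB libraries lay above both HF libraries for 9 of the 14 core genes and 14 of the 17 cap genes. Assembly chaperones had a median of 0.46, with 6 of 7 above 0. Among them only Psmd10, which escorts the cap ATPases, passed the adjusted test, at 2.18, 2.50, 7.13 and 5.62 RPKM in HF1, HF2, HB1 and HB2 (log2 difference 1.14 ± 0.25, limma adjusted p = 0.0121).

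As shares of all reads, 20S genes took 0.122% and 0.136% of the mRNA reads in HF1 and HF2 and 0.173% and 0.188% in HB1 and HB2. The 19S genes took 0.109% and 0.104% in HF and 0.161% and 0.143% in HB. For both classes the 95% Wilson intervals of the HB libraries lay above those of the HF libraries, for example 0.172% to 0.175% for 20S in HB1 against 0.134% to 0.139% in HF2. These intervals cover counting error only.

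**Figure D2:**
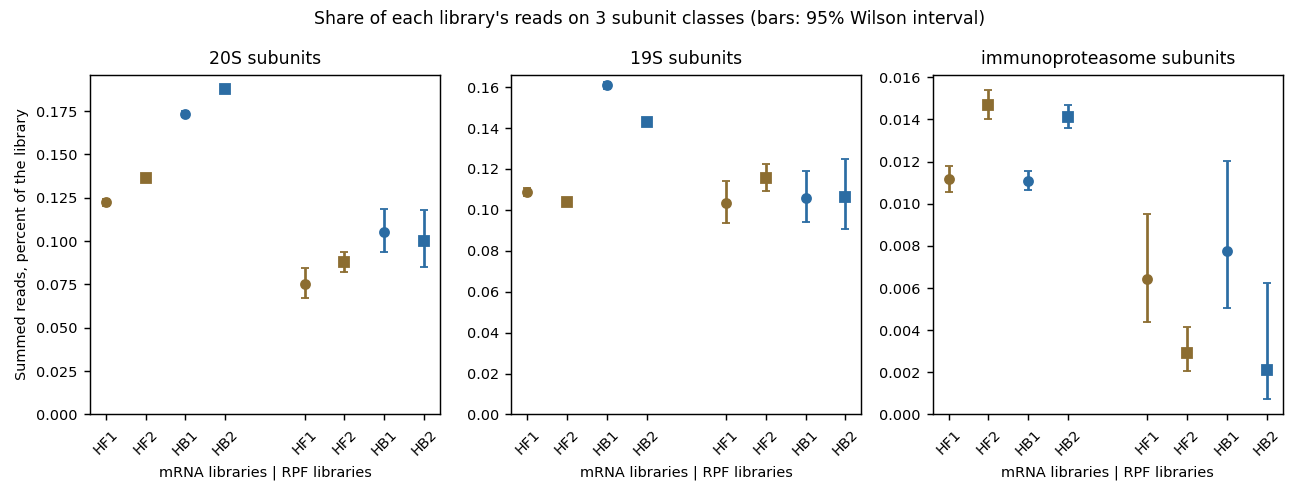
Summed whole reads of 20S, 19S and immunoproteasome genes as a percent of each library's reads (vertical axis, from 0), with 95% Wilson intervals, in mRNA libraries on the left and RPF libraries on the right of each panel. The mRNA shares of 20S and 19S are higher in both HB libraries, while the 19S share of RPF reads lies between 0.103% and 0.116% in all 4 libraries.

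The start regions of members whose mRNA rose are shown to set their sequences beside the values, together with Psmb9 and with Psmb5 as a catalytic subunit that did not pass. The RefSeq table (GRCm38.p6) had 250 bases before and 50 bases after the start for 42 of the 50 genes, in 45 windows. Psmb7 was not among them. On both strands, 5 short motifs were searched, overlaps between motifs allowed, and the letters found are in capitals.
Psma1, chr7:114276067-114276366, minus strand, 2 CCAAT boxes: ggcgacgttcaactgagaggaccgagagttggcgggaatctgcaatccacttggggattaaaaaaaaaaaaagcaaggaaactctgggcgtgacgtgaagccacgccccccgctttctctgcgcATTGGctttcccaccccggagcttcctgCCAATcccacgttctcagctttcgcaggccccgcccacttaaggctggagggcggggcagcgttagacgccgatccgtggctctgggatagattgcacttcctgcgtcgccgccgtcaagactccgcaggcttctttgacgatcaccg
Psma5, chr3:108256676-108256975, plus strand, no match: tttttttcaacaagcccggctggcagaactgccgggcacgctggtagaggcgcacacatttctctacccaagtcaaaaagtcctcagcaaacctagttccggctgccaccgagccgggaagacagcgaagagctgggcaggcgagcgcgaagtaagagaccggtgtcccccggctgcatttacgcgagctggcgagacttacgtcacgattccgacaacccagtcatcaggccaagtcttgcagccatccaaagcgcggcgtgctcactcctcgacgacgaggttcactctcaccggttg
Psmd13, chr7:140882144-140882443, plus strand, 3 Ets cores: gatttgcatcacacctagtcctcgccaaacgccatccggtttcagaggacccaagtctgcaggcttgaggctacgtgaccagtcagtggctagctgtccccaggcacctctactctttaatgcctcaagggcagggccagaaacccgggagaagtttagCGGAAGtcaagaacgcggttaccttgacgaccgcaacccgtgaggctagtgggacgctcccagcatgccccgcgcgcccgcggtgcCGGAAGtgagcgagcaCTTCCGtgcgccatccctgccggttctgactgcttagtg
Psmb9, chr17:34187281-34187580, minus strand, 1 CCAAT box: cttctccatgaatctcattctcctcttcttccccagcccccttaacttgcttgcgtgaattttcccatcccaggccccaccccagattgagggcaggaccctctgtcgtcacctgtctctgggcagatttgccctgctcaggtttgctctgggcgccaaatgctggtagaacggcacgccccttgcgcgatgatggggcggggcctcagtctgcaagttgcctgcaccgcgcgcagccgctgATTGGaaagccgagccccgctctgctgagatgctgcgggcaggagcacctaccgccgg
Psmb5, chr14:54617946-54618245, minus strand, 1 antioxidant response element core: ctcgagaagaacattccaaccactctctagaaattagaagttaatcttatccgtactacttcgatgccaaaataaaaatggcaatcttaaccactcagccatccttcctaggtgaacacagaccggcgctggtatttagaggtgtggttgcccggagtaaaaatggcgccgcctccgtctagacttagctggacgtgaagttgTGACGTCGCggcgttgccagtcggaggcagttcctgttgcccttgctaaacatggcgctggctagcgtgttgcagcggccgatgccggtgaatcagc

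The antioxidant response element core, TGACNNNGC, is read by Nrf1 (Nfe2l1), the factor known to induce proteasome genes when the proteasome is inhibited. It was in the windows of 6 genes, Psmb5, Psmb6, Psmc6, Psmd9, Psmd12 and Psme4, or 13.3% of the members' windows against 12.4% of all 32851 windows. None of these 6 genes rose in mRNA under either rule, beside 2.30% of all genes at the study's thresholds and 7.92% by the adjusted test. The Ets core, CGGAAG, was in 53.3% of the members' windows against 16.9% of all. The CCAAT box was in 33.3% against 37.4%, the gamma-activated site TTCNNNGAA in 6.67% against 8.30%, and the interferon-stimulated response element core GAAANNGAA in 15.6% against 8.56%. Psma5 had no match to the 5 motifs, so no motif could be common to Psma1, Psma5 and Psmd13, whose mRNA rose together. A match describes letters only.

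The 3 immunoproteasome genes had different values in mRNA. Psmb9 had 18.2 and 20.6 RPKM of mRNA in HF and 35.9 and 36.8 RPKM in HB, with the libraries of each group close together. It rose by 0.88 ± 0.24 on the log2 scale (limma adjusted p = 0.0272), a call lost without HF1, without HF2 and with no filter. Psmb8, encoded nearby on chromosome 17, had 25.7, 35.3, 28.3 and 33.2 RPKM in HF1, HF2, HB1 and HB2 (log2 difference 0.03 ± 0.27, limma adjusted p = 0.954). Psmb10 had 51.6, 68.7, 37.3 and 55.7 RPKM (log2 difference -0.38 ± 0.29, limma adjusted p = 0.354). Both overlapped between groups. The class median was 0.03, and -0.19 to 0.25 with 1 library left out, and its difference from the core was not tested. The immunoproteasome share of mRNA reads was 0.0112%, 0.0147%, 0.0111% and 0.0141%, which was not ordered by group.

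Each inducible subunit was also set against the constitutive subunit it replaces, within each library. Psmb10 was close to Psmb7 in HF, with mRNA ratios of 0.972 and 1.14, and well below it in HB, with 0.196 and 0.321. Psmb9 was 0.0880 and 0.0951 of Psmb6 in HF and 0.236 and 0.165 of it in HB. Psmb8 was 0.209 and 0.233 of Psmb5 in HF and 0.180 and 0.137 in HB. The 3 mRNA ratios thus differed in direction, although none overlapped between the groups. Among single genes in mRNA, both HB libraries lay above both HF libraries in 24.8% and below them in 43.3%. In RPF the ratio of Psmb10 to Psmb7 lay the other way, at 0.0872 and 0.112 in HF and 0.147 and 0.208 in HB. It rested on 4, 12, 5 and 3 reads of Psmb10. The RPF ratios of Psmb8 and Psmb9 were 0 in HB2.

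Leukocytes express the immunoproteasome constitutively, so their markers are given beside it. The summed mRNA level of 7 leukocyte markers was 29.0, 41.5, 24.1 and 24.6 RPKM in HF1, HF2, HB1 and HB2. Ptprc, the pan-leukocyte surface phosphatase, had 3.70 and 4.25 RPKM in HF and 1.44 and 1.49 RPKM in HB, and fell by 1.01 ± 0.24 on the log2 scale (limma adjusted p = 0.0151). Coro1a also passed, at -0.90. Laptm5 lay the other way without passing, at 4.33 and 4.80 RPKM in HF and 6.18 and 5.44 RPKM in HB. The lymphocyte markers Cd3e and Cd79a were at or below 1.02 RPKM in every library. Of the 4 leukocyte markers that passed the filter, 0 rose and 2 fell by the adjusted test, beside 7.92% and 19.1% of all genes. Of 6 macrophage and Kupffer cell markers, whose summed level was 109, 122, 134 and 116 RPKM, 1 rose and 0 fell by the same test. It was Cd5l, at 11.3 and 18.8 RPKM in HF and 41.4 and 32.6 RPKM in HB (log2 difference 1.27 ± 0.30, limma adjusted p = 0.0144). Clec4f, the most abundant of these markers, lay the other way without passing, at 72.6 and 64.4 RPKM in HF and 48.9 and 49.6 RPKM in HB. The part of these markers in the immunoproteasome values was not tested.

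Of the activators, Psme1 and Psme2 form the interferon-induced PA28 cap. Psme1 had 82.6, 92.3, 96.3 and 126 RPKM of mRNA and Psme2 had 86.5, 101, 75.9 and 87.9 RPKM in HF1, HF2, HB1 and HB2. Neither passed a threshold. Psme3, the nuclear PA28 subunit, and Psme4, the PA200 cap, had log2 differences of 0.34 and 0.22. Only Psme2b rose, from 5.34 and 5.11 RPKM in HF to 14.1 and 16.7 RPKM in HB (log2 difference 1.39 ± 0.25, limma adjusted p = 0.00666). The call held in 11 of 14 alternatives. Psme2b is a close copy of Psme2 and how reads were divided between them is not given in the sources used here, so its values are uncertain. The inhibitor gene Psmf1 had a log2 difference of 0.39 ± 0.26.

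The next comparison asked whether ribosome footprints followed the mRNA. Among the members, 3 were past the study's RPF thresholds upward and 3 downward, a log2 difference above 1 and p under 0.05. Over all 11190 tested genes, 1.58% were past them upward and 7.86% downward. With adjustment over all genes (limma) 0 genes passed, members or not, and 1122 had an unadjusted p under 0.05, among them 7 members. With voom on the recovered reads 0 members had an adjusted p under 0.05, where 0.456% of all genes passed upward and 0.277% downward. The median log2 RPF difference was 0.02 over the members and -0.43 over all genes. Both HB libraries lay above both HF libraries in 14 members and below them in 8, against 9.07% and 33.2% of all genes.

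The upward calls were catalytic subunits and an ATPase. Psmb5 had 23.7 and 36.9 RPKM of RPF in HF and 103 and 56.6 RPKM in HB, from 8, 34, 23 and 7 reads (log2 difference 1.34 ± 0.44, limma adjusted p = 0.493). Psmb6 had 29.9 and 23.8 RPKM in HF and 48.8 and 81.6 RPKM in HB (log2 difference 1.22 ± 0.39, limma adjusted p = 0.493). Psmc1, an ATPase of the cap, had 25.9 and 43.8 RPKM in HF and 65.2 and 89.7 RPKM in HB (log2 difference 1.16 ± 0.39, limma adjusted p = 0.493). None of these overlapped between groups. With reads pooled within groups, HB was 2.59 times HF for Psmb5 (95% exact interval 1.56 to 4.23), 2.38 times for Psmb6 (1.38 to 4.05) and 1.90 times for Psmc1 (1.29 to 2.76), counting error only. With every library scaled to a common sum the log2 differences were 0.48, 0.36 and 0.30 for Psmb5, Psmb6 and Psmc1, and each call was lost. Psmb5 and Psmb6 were the constitutive catalytic subunits whose mRNA did not pass.

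The downward calls, each at a limma adjusted p of 0.493, included genes with very few reads. Psmb2 had 14 and 35 reads in HF and 5 and 1 in HB, or 42.6, 39.1, 23.0 and 8.32 RPKM. Its log2 difference was -1.48 ± 0.55 and its pooled ratio of 0.443 had an interval from 0.155 to 1.04. Psmd6, a lid subunit, had 22 and 76 reads in HF and 9 and 2 in HB, or 42.4, 53.8, 26.2 and 10.5 RPKM, with a pooled ratio of 0.406 (0.196 to 0.759). Psmd10 had 6 and 8 reads in HF and 0 in both HB libraries. Since 3 reads of Psmd10 amount to a mean of 11.3 RPKM in the HB libraries, above the HF values of 10.6 and 5.20 RPKM, a difference was not detectable at this depth. Psmd12, another lid subunit, was not called at the fold threshold but had 61.3 and 52.2 RPKM in HF and 33.9 and 24.5 RPKM in HB, a pooled ratio of 0.559 (0.335 to 0.889).

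The RPF count of upward calls was 0 without HF1, 0 without HF2, 6 without HB1 and 2 without HB2. In the same fits 0.551%, 1.23%, 4.30% and 5.00% of all genes were called upward. The downward count was 1, 1, 11 and 2 in that order, against 3.86%, 5.96%, 22.5% and 13.4% of all genes, so the 11 of 47 without HB1 were near the share of all genes. A group left with 1 library was assumed to vary like the other group. In the shallowest library, HB2, 15 of the 47 members had at most 3 reads, against 3, 1 and 7 in HF1, HF2 and HB1, and the median member had 6 reads.

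The footprint values of the core and the cap are given side by side, since the difference between them was not tested. The 20S genes had a median log2 RPF difference of 0.30 with 9 of 14 above 0, beside 29.6% of all genes above 0. This median turned to -0.56 with a common sum, where that of all genes was -1.19, and was 0.16 without HB1. Their share of RPF reads was 0.0755% and 0.0877% in HF and 0.105% and 0.10% in HB. The Wilson intervals of HF2, 0.0823% to 0.0936%, and HB2, 0.0849% to 0.118%, overlapped. The 19S genes had a median of -0.01 with 8 of 17 above 0, and a share of 0.103%, 0.116%, 0.106% and 0.106% in HF1, HF2, HB1 and HB2. Here each interval overlapped every other.

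Footprints of the immunoproteasome were too few to compare. Psmb8 had 18, 12, 12 and 0 reads, Psmb9 had 3, 7, 3 and 0, and Psmb10 had 4, 12, 5 and 3 in HF1, HF2, HB1 and HB2. In HB2, 3 reads would be 21.1 RPKM for a transcript of 1 kb. Psmb10 was at 8.12 and 8.94 RPKM in HF and 15.3 and 16.6 RPKM in HB, with a pooled ratio of 1.81 and an interval from 0.671 to 4.48.

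**Figure D3:**
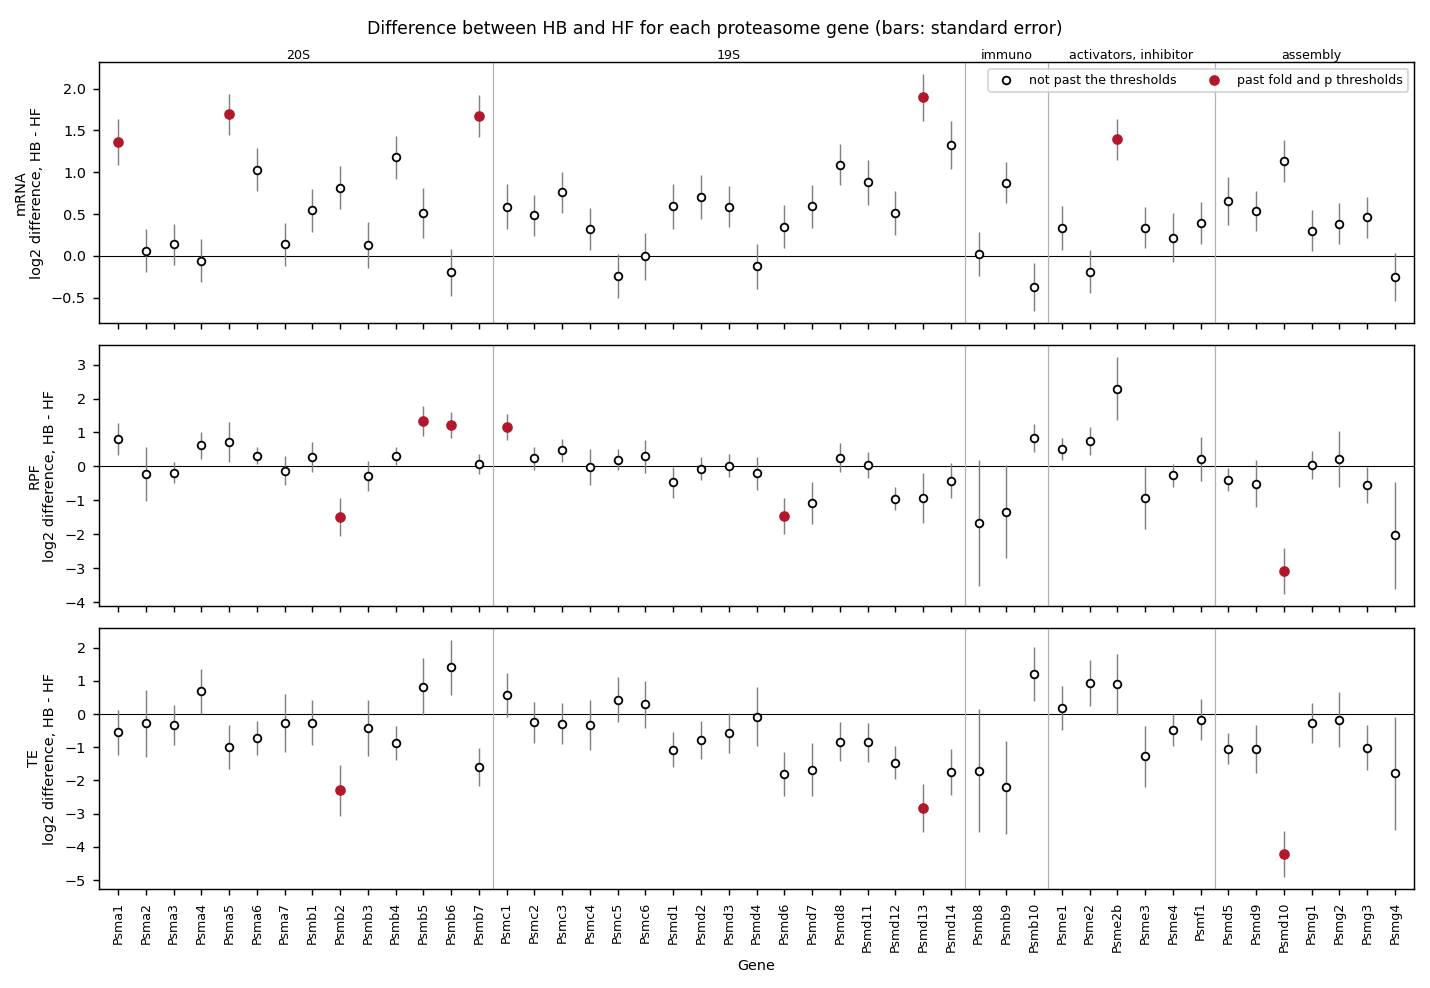
Log2 difference, HB minus HF, of each of 47 genes in mRNA, RPF and TE (vertical axes, which differ in scale), with standard errors from limma and filled points past the study's fold and p thresholds. Most mRNA points lie above 0, RPF points lie on both sides of it, and 37 of the 47 TE points lie below 0.

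The last comparison was of TE. The study's TE thresholds, a log2 difference above 2 and p under 0.05, were passed downward by 3 members and upward by 0. Over all 9455 tested genes, 1.49% were called upward and 4.60% downward. After adjustment 0 genes passed (limma), with 1154 at an unadjusted p under 0.05, 7 of them members. Both HB libraries lay below both HF libraries in 21 members and above in 6, against 31.7% and 14.0% of all genes. The median log2 TE difference was -0.54 over members and -0.35 over all genes.

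For Psmd13 the ratio of RPF to mRNA was 2.02 and 1.76 in HF and 0.404 and 0.130 in HB. The log2 difference of -2.84 ± 0.72 (limma adjusted p = 0.334) combined higher mRNA with RPF values of 18.1, 21.2, 19.9 and 4.51 RPKM, the last from 1 read. For Psmb2 the ratio was 1.05 and 0.795 in HF and 0.274 and 0.111 in HB, also with the last from 1 read (limma adjusted p = 0.365). Psmd10 was the third, with 0 RPF reads in HB, and its call carries no weight at this depth. Psmb7, whose mRNA rose, was not called in TE, with ratios of 1.75 and 1.33 in HF and 0.548 and 0.461 in HB. Its RPF values overlapped between groups, at 93.1, 80.1, 104 and 80.0 RPKM, from 35, 82, 26 and 11 reads.

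Downward calls in TE numbered 1 without HF1, 1 without HF2, 8 without HB1 and 4 without HB2, against 1.24%, 1.93%, 13.3% and 7.58% of all genes. In the fits without HB1 and without HB2, in which HF alone gave the spread, 8 and 3 members passed the adjusted test downward, as did 13.2% and 7.20% of all genes.

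Core and cap also differed in their median TE level. The median TE ratio of 19S genes was 1.11 and 1.42 in HF and 0.618 and 0.668 in HB, and that of 20S genes was 0.594 and 0.775 in HF and 0.577 and 0.438 in HB. Over all tested genes the median was 1.07 and 1.02 in HF and 0.877 and 0.739 in HB. The 19S median thus lay above that of all genes in HF and below it in HB, while the 20S median was below it in all 4 libraries. The 19S class had 14 of 17 genes with a TE difference below 0 and a median of -0.78 (-0.36 without HB1, where the median of all genes was -0.41), the 20S class 11 of 14 and a median of -0.37. Over all genes 36.8% had a TE difference above 0 and the median was -0.35, and 7 of the 14 core genes and 7 of the 17 cap genes lay above that median. A contrast within the core went the other way, since Psmb5 and Psmb6 had higher TE in HB by 0.82 and 1.41 on the log2 scale, neither called. PA200, encoded by Psme4, had the highest TE ratio of the activators, at 4.37, 6.19, 2.88 and 4.62 in HF1, HF2, HB1 and HB2.

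Subunits of one particle differed widely in mRNA level. In HF1 the 20S mRNAs ran from 12.3 RPKM (Psma5) to 207 RPKM (Psmb6), and the 19S mRNAs from 9.0 RPKM (Psmd13) to 110 RPKM (Psmd4). The SD of log2(RPKM + 1) over the 14 20S genes was 1.11 and 1.08 in HF and 0.63 and 0.87 in HB, and over the 17 19S genes it was 0.91 and 0.87 in HF and 0.42 and 0.71 in HB. The mRNA levels were therefore more even within both HB libraries, and most even in HB1. Over all tested genes the same SD was 1.91, 1.89, 2.00 and 2.05, higher rather than lower in HB.

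In footprint levels the SD over 19S genes was 0.55 and 0.43 in HF and 0.79 and 0.99 in HB, and over 20S genes 0.84, 0.80, 0.87 and 1.28. Over all tested genes it was also higher in HB, at 2.26 and 2.39 against 1.98 and 2.00 in HF. The spread in RPF includes counting error, which is larger in the shallower HB libraries. Its part was not tested. Across the 31 core and cap genes, the correlation of mRNA with RPF level was 0.22, 0.24, 0.73 and 0.36 in HF1, HF2, HB1 and HB2, a description in which genes share library and length. Across the 47 tested genes the log2 differences in mRNA and RPF had a correlation of 0.01, and over the 9455 genes tested in both it was 0.08.

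**Figure D4:**
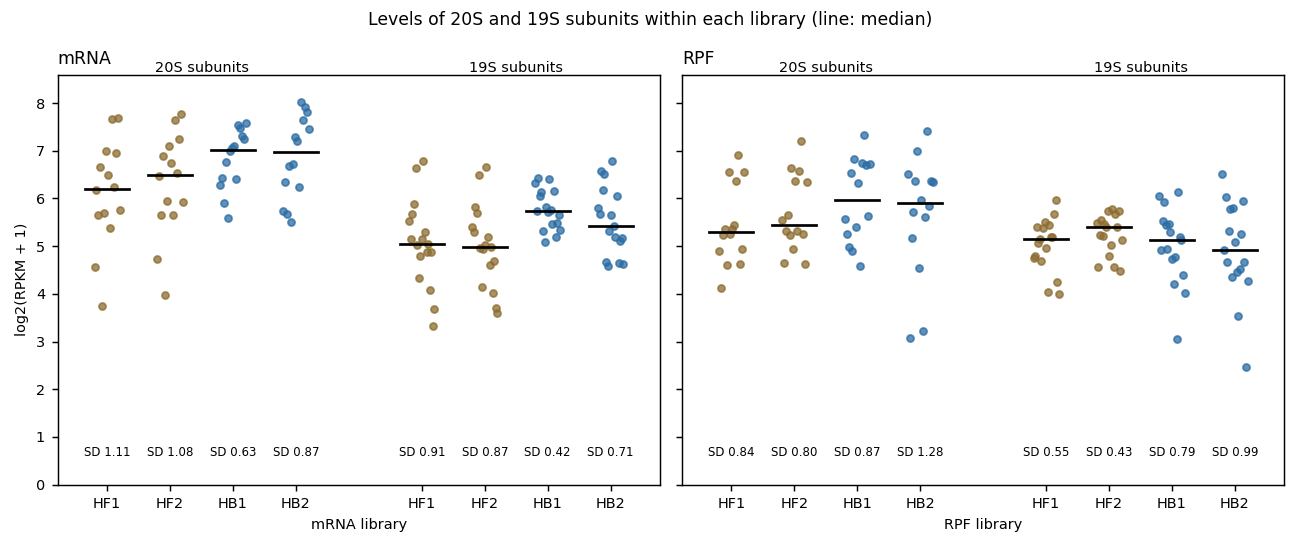
Level of each 20S and 19S subunit as log2(RPKM + 1) in each library (vertical axis), mRNA on the left and RPF on the right, with the median as a line and the SD over subunits printed below. The mRNA points are closer together in HB1 and HB2 than in HF1 and HF2 for both classes, and the RPF points of the 19S class are closer together in HF1 and HF2.

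The ratio of the median 20S to the median 19S mRNA level was 2.30 and 2.92 in HF and 2.47 and 3.0 in HB, with overlapping groups. In RPF the ratio was 1.12 and 1.04 in HF and 1.88 and 2.02 in HB, without overlap. With geometric means in place of medians the RPF ratio was 1.34 and 1.36 in HF and 1.94 and 1.67 in HB, again without overlap but with a smaller gap. The mRNA level of the core was above that of the cap in every library by either measure.

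Genes that act with the proteasome are given with the shares of all genes that rose (7.92%) and fell (19.1%) by the same adjusted test. Of 19 partners in the files, such as shuttle factors and deubiquitinases, 3 rose and 2 fell by the adjusted mRNA test, and 0 were called at the study's thresholds. Pomp, which escorts core assembly, had 101 and 114 RPKM of mRNA in HF and 185 and 198 RPKM in HB (log2 difference 0.82 ± 0.25, limma adjusted p = 0.0388). It was also the single partner past the RPF thresholds, which 1.58% of all genes passed upward. Its RPF values were 27.9 and 66.5 RPKM in HF and 121 and 133 RPKM in HB (limma adjusted p = 0.493). Vcp, the segregase that delivers unfolded substrates, had 56.4 and 59.5 RPKM of mRNA in HF and 127 and 99.9 RPKM in HB, and rose by 0.95 ± 0.26 on the log2 scale (limma adjusted p = 0.0254). The ubiquilins Ubqln2 and Ubqln4, which shuttle substrates to the proteasome, went in opposite directions, at 0.95 and -1.24 (limma adjusted p = 0.0211 and 0.0120). None of the 5 ubiquitin and E1 genes tested in mRNA passed.

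The axis of Nrf1, which is retained and processed at the endoplasmic reticulum before it acts, had 3 of 8 genes that fell by the adjusted test and 0 that rose, beside the 19.1% and 7.92% of all genes. Syvn1, the ubiquitin ligase that degrades Nrf1, had 230 and 176 RPKM in HF and 36.9 and 57.7 RPKM in HB and fell by 2.10 ± 0.30 on the log2 scale (limma adjusted p = 0.00525). Ddi2, the protease that activates Nrf1, and the partner Mafg fell by 0.89 and 0.85. Nfe2l1 itself had 47.0, 42.5, 37.6 and 36.1 RPKM, a difference of -0.27 ± 0.24 that did not pass.

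Interferon-response genes are known to share the induction of Psmb9. Of 15 tested in mRNA, 3 fell and 0 rose by the adjusted test, beside 19.1% and 7.92% of all genes. The same 3 were also called downward at the study's thresholds, beside 6.56% of all genes. These were Stat2, Irf9 and Ifit1 at -1.94, -1.45 and -1.45 on the log2 scale. Of 10 genes of MHC class I presentation, which uses the peptides that the immunoproteasome cuts, 1 fell and 0 rose, which is no more than the shares of all genes, and the list median was 0.25. Both HB libraries lay above both HF libraries for 5 of the 10 (Tap2, Tapbp, H2-K1, H2-D1 and Calr, none of which passed) and below them for B2m and Nlrc5, beside the 24.8% and 43.3% of all genes. The gene that fell was Nlrc5, the transactivator of the pathway, at 7.08, 10.8, 3.52 and 4.40 RPKM (log2 difference -0.98 ± 0.28, limma adjusted p = 0.0290).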

How the data were processed

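The 8 libraries of liver (4 RNA-seq, 4 Ribo-seq, 2 per group and assay) were used as deposited. The authors mapped the reads with FANSe2 to mm10 and deposited RPKM per gene, and they used edgeR for differential mRNA. Entries that shared a symbol were left out. Whole reads were recovered for 99.6% of mRNA and at least 99.94% of RPF genes above 0, and gave the library depth. The mRNA genes with whole reads held 70.6%, 68.7%, 65.5% and 64.8% of the library total in HF1, HF2, HB1 and HB2. That total was the base of the read shares. The lengths behind the RPKM exceeded the coding sequence for each of the 47 members that had one in both assays, and 37 had the same length in both. For the other 10, such as Psma7 (952 and 1591 bases), the TE level, not the difference between groups, moves with the length.

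RPKM was tested as log2(RPKM + 1) with limma 3.58.1 in R 4.3.3 with a variance trend, in genes with a mean of at least 1 RPKM, and p-values were adjusted over all tested genes. Fold changes on this scale understate those of low genes. TE was log2(RPF + 1) minus log2(mRNA + 1) of the libraries with the same number. Called means past the thresholds of the study. Scripts were tested on simulated data. Intervals are 95% and floors are 3 reads. The genes named were each called member, the catalytic, inducible and activator subunits, and the highest and lowest of each class; other genes were named to complete a class. Psmd12 was singled out after its values were seen. Members, lists and motifs were chosen with earlier results of these data known. Alternatives were other pseudocounts, filters, scalings, variance models, pairings and libraries left out; those on recovered reads, protein-coding scaling and crossed numbers were chosen after seeing the data. Gene coordinates are from GENCODE M21.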

Additional observations from a re-analysis of the deposited data

How the results depend on the processing

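Members past the mRNA thresholds upward numbered 5, and 10 with a common median (5.05% of all genes), 14 by the adjusted p alone and 3 to 10 when 1 library was left out. Downward calls numbered 0 under each alternative run. In RPF, 3 upward calls became 0 with a common sum, 5 with a common median (3.12% of all genes), 0 with no variance trend, 1 when scaled to protein-coding genes, 0 by the adjusted p and 0 to 6 with 1 library left out. The 3 downward calls became 5 with a common sum (24.2% of all genes), 1 with a common median (3.76%), 1 with no variance trend (8.70%), 0 with voom on recovered reads (6.24%), 0 by the adjusted p and 1 to 11 with 1 library left out. In TE the 3 downward calls became 8 with a common sum (13.9% of all genes, near the share of the members), 0 by the adjusted p and 1 to 8 with 1 library left out. Of all genes, 1.58% were called upward in RPF in the main fit, 0.360% with a common sum and 1.50% with no variance trend. The share was 1.25% when scaled to protein-coding genes. The cause of the changes in these counts was not tested.

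The median log2 difference of 20S in mRNA moved to 0.80 with a common median, and was 0.37 to 0.67 with 1 library left out. In RPF it moved to -0.56 with a common sum, 0.63 with a common median and 0.16 when scaled to protein-coding genes, and was 0.16 to 0.41 with 1 library left out. In TE it moved to -1.18 with a common sum. For 19S it moved to 0.86 in mRNA with a common median, to -0.86 in RPF with a common sum and to 0.31 with a common median, and to -1.59 in TE with a common sum. With 1 library left out 19S was -0.19 to 0.13 in RPF and -0.77 to -0.36 in TE. The immunoproteasome moved to 0.30 in mRNA with a common median, and with 1 library left out was -3.30 to 0.78 in RPF and -4.20 to 1.06 in TE. The common sum moved the median of all genes to -1.19 in RPF and -1.03 in TE, and the common median moved it to 0.08 in mRNA and -0.10 in RPF. Against those medians, 32 to 34 of the 47 members lay higher in RPF and 42 in mRNA. In TE, 13 of the 47 lay above the median of all genes with a common sum, beside 21 in the main fit.

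With the replicate number as a block, 9 members were called upward in mRNA (4.66% of all genes), 4 upward (1.89%) and 3 downward (5.76%) in RPF, and 3 downward in TE (4.99%). The deviations of same-numbered libraries had a correlation of -0.10 in mRNA and -0.01 in RPF, so the libraries share only a number. The RPF and mRNA libraries that TE sets against each other by number had a correlation of -0.00239 in HF and -0.0774 in HB, so each TE ratio of a single library rests on a pairing that the data do not show. With crossed numbers, 9 members were called upward in mRNA (4.44% of all genes) and 3 upward (2.08%) and 4 downward (5.96%) in RPF, and with mRNA of the other number 3 were called downward in TE (4.35%).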

Other observations

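Psmb11, which encodes the beta subunit of the thymus proteasome, had 1 and 10 RPF reads in HF1 and HF2 and 0 in HB1 and HB2, while it was listed at 0 in each mRNA library. Its pooled RPF interval for the ratio of HB to HF ran from 0 to 1.44, so no difference was detectable at this depth. Psma8, an alpha subunit known from the testis, had 0.203, 0, 0.236 and 0.523 RPKM of mRNA in HF1, HF2, HB1 and HB2.

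Psmg4 and Psmg3, which act in assembly of the core, had 3 and 2 pooled RPF reads in HB. Their pooled ratios of HB to HF were 0.836 (0.153 to 3.04) and 0.603 (0.0656 to 2.71), so no difference was detectable at this depth.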
